A study of Homo sapiens with 2 samples.

Results

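The height of the strongest open-chromatin peak at each protein-coding gene was followed along chromosome 12 in CAMA-1 cells. A gene entered when a peak lay within 1 kb of any of its annotated transcription start sites (TSSs), and its strongest peak by deposited fold enrichment stood for it. Of the 1038 protein-coding genes annotated on chromosome 12, 834 had such a peak in both replicates, which was 80.3% with a 95% Wilson interval of 77.8 to 82.6%. Over all chromosomes 15890 of 20033 genes did, or 79.3%, so that the share on chromosome 12 was close to the background. Replicate 1 held 839 of these genes and replicate 2 held 847. A peak was called in replicate 1 only for 5 genes, in replicate 2 only for 13 genes and in neither for 186 genes. The highest peak among genes seen in only 1 replicate reached 151 stacked reads. Of all peaks in the lists, 10874 of 245736 in replicate 1 and 11502 of 259745 in replicate 2 lay on chromosome 12, and 1853 and 1869 of those lay at a protein-coding TSS.

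CAMA-1 is an established line of epithelial cells from a human breast cancer. The cells were grown untreated in serum-supplemented medium, and 2 biological replicates of 1 condition were profiled by ATAC-seq, in which the Tn5 transposase cuts and tags DNA that is free of nucleosomes. No group was compared with another, so no p-value was computed. The genes, the bins and the breaks were chosen on the heights of both replicates, and all heights below are descriptions of those values.

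A promoter that is held open by transcription factors and by the transcription machinery gives one of the tallest and widest ATAC-seq peaks of a gene, whereas enhancers and insulators away from genes give more cell-specific and mostly lower ones. Chromosome 12 carries the type II keratins, the HOXC homeobox cluster, the natural killer receptor and bitter taste receptor families, and cell cycle genes such as CDK4 and CDKN1B. The height of a peak adds the reads of all cells and of all copies of a region, so that more copies, more cells with an open region and a more open region cannot be told apart from these files.

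Height is given in stacked reads, recovered from the fold enrichment, and as a relative height, the height divided by the median over autosomal protein-coding genes with a TSS peak in the same replicate. That median was 224 stacked reads in replicate 1 and 240 in replicate 2. The relative heights of the 834 genes in the replicates had a median ratio of 0.997, with 0.801 at the 5th and 1.24 at the 95th percentile. Among luminal breast markers, all 8 had a TSS peak, beside 79.3% of all protein-coding genes. Their mean relative heights ran from 0.479 for AGR2 to 2.74 for KRT8, with ESR1 at 0.606, GATA3 at 0.935 and FOXA1 at 1.67. The value of KRT8 came from peaks that did not overlap between the replicates. The 4 basal markers also had TSS peaks, between 0.101 for KRT17 and 0.512 for KRT14. A peak alone thus did not set the luminal markers apart. The blood markers PTPRC, CD3E and SPI1 had no TSS peak, and the fibroblast genes COL1A1 and PDGFRA had 1.34 and 0.347.

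The heights fell into a low stretch from the 12p end, a high stretch over most of 12q and a low one towards the 12q end. A promoter with a high peak and a promoter near the median are shown for each, so that the letters behind heights of such different size can be read side by side. They were chosen among CpG-rich promoters in the RefSeq table of 250 bases before to 50 bases after a gene's start (assembly GRCh38, the build of the peaks), which held 732 of the 1038 genes. All are written 5′ to 3′ on the strand of the gene. Capitals mark GC boxes, the GGGCGG bound by SP and KLF factors, CCAAT boxes, bound by NF-Y, and the ETS letters CCGGAAG, each searched on both strands. In the first stretch ETFBKMT (plus strand, chr12:31658953-31659252) had heights of 655 and 682 stacked reads in replicates 1 and 2, and ATF7IP (plus strand, chr12:14365432-14365731) had 125 and 180. In the middle stretch SPRYD3 (minus strand, chr12:53079341-53079640) had 843 and 904, and METTL25 (plus strand, chr12:82358279-82358578) had 282 and 285. In the last stretch ZNF140 (plus strand, chr12:133080673-133080972) had 578 and 653, and GCN1 (minus strand, chr12:120194666-120194965) had 137 and 144.
ETFBKMT: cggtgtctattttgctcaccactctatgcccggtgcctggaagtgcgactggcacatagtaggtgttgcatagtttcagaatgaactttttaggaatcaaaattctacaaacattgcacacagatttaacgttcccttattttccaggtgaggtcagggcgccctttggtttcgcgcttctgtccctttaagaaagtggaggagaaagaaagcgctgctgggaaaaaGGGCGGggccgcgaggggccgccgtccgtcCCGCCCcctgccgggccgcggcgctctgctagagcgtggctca
ATF7IP: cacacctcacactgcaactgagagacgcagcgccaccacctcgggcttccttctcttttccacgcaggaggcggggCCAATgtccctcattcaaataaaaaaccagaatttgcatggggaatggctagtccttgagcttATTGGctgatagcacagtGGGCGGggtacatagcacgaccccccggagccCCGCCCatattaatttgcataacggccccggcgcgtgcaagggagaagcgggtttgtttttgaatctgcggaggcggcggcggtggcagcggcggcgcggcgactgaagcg
SPRYD3: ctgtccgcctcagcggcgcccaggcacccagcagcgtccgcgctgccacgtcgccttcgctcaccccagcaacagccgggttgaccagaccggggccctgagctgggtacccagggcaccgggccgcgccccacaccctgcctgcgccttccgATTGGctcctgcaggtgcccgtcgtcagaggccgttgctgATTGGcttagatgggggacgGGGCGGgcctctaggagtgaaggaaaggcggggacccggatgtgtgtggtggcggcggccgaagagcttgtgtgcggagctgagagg
METTL25: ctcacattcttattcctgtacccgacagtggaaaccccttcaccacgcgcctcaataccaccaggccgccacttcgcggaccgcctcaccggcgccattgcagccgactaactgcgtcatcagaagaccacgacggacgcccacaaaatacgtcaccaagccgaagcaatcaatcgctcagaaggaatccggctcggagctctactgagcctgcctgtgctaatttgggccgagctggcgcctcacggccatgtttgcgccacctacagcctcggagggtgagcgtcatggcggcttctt
ZNF140: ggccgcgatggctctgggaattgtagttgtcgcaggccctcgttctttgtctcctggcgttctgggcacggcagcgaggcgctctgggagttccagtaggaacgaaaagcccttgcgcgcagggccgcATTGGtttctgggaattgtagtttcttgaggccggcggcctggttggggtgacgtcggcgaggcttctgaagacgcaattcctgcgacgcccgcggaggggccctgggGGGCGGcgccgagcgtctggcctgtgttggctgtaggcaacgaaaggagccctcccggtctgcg
GCN1: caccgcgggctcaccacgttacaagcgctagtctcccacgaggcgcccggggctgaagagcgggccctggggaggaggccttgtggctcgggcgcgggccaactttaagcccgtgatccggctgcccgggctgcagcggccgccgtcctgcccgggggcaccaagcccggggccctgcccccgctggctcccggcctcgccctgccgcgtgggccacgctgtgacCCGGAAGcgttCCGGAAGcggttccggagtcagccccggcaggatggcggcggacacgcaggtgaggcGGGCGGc

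The window of SPRYD3 held 1 GC box and 2 CCAAT boxes, and that of ATF7IP, with a peak far lower, held 2 of each. ETFBKMT had 2 GC boxes, ZNF140 had 1 GC box and 1 CCAAT box, and GCN1 had 2 ETS matches and 1 GC box. METTL25 held none of these letters. Matches were thus seen at the tallest promoters and also at promoters with peaks near the median.

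Medians were first taken in 5 Mb bins counted from the 12p end. On 12p the boundary that best divided the genes lay at 30 Mb. The median relative height before it was 0.598 in replicate 1 and 0.629 in replicate 2, over 178 and 179 genes, and between it and the centromere it was 1.06 and 1.13 over 16 genes. Medians beside a boundary were taken on log2 heights, so that with an even number of genes they can differ slightly from the medians of bins. The higher side was 1.79 ± 0.0148 times the lower (SD, n = 2 replicates). On 12q the boundary lay at 115 Mb and the order was turned. The genes before it had medians of 1.21 and 1.19 over 513 and 518 genes, and those after it had 0.607 and 0.610 over 132 and 134 genes, a ratio of 1.97 ± 0.0286 (SD, n = 2 replicates). Since each boundary was the one that best divided these heights, a ratio above 1 was set by the search. With genes without a peak counted at height 0 the 12p ratio was 3.03. With peaks more than 3 kb from any TSS in place of TSS peaks it was 0.931 on 12p, the opposite direction, and 1.08 on 12q. The higher side on 12p rests on 16 genes in a stretch of low gene density, and the one on 12q on the bulk of the arm.

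**Figure D1:**
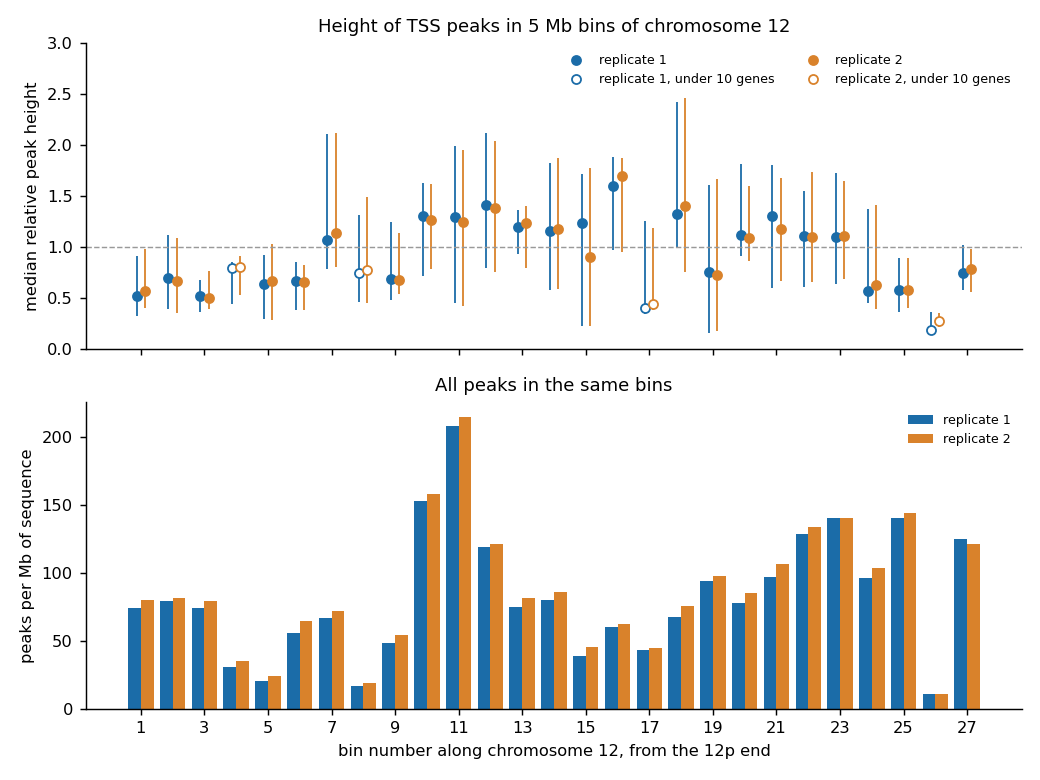
Upper panel, the median relative height (no unit) of the strongest TSS peak per gene in each 5 Mb bin of chromosome 12, with the interquartile range as a line. Open symbols are bins with under 10 genes. Lower panel, all peaks per Mb in the same bins. Blue is replicate 1 and orange replicate 2. The first 6 bins and bins 24 and 25 lie at 0.804 or below while most bins between 10 and 23 lie above 1, and the peak count follows another course, highest in bin 11.

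Of the 27 bins, 23 had at least 10 genes with a peak in both replicates. From the 12p end to 30 Mb their medians stayed between 0.50 and 0.692 in both replicates. The bin from 30 to 35 Mb had 1.06 and 1.14, and the bin from 40 to 45 Mb had 0.688 and 0.679. The low run of bins was thus interrupted once before it ended. From 45 Mb to 70 Mb all 5 bins lay between 1.16 and 1.41. The highest bin, from 75 to 80 Mb, reached 1.60 and 1.69 with 15 genes. The bin from 80 to 85 Mb, with under 10 genes, had 0.406 and 0.446 over 8 genes. The bin from 85 to 90 Mb had 1.32 and 1.41, and the bin from 90 to 95 Mb, with 0.752 and 0.729, also interrupted the high run. The bins from 95 to 115 Mb lay between 1.09 and 1.30, and the bins from 115 to 125 Mb between 0.574 and 0.625. The last bin, from 130 Mb to the end, had 0.750 and 0.783. The order of the bins was close in both replicates, with a Spearman correlation of 0.956 over 23 bins. The largest disagreement was the bin from 70 to 75 Mb, with 1.23 over 13 genes in replicate 1 and 0.902 over 14 genes in replicate 2.

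Among the 455 autosomal bins of the same width with at least 10 genes, the bins from 10 to 15 Mb and from 0 to 5 Mb stood at the 1.98 and 3.30 percentiles. The bins from 120 to 125 Mb and from 115 to 120 Mb stood at 4.40 and 6.15, and the bin from 75 to 80 Mb at 95.2. Chromosome 12 thus held bins near both ends of the range seen over the autosomes. As a whole it was lower than most, with a median of 0.905 ± 0.0107 (SD, n = 2 replicates), rank 18 of 22 autosomes from the highest. The ratio of its highest to its lowest bin, 3.22, was rank 9 of 22.

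The number of peaks ran differently. The bin from 50 to 55 Mb, which holds the keratin and HOXC clusters, had 208 and 215 peaks per Mb in replicates 1 and 2 and a median height of 1.29 and 1.24. The bin from 120 to 125 Mb had 140 and 144 peaks per Mb and a median height of only 0.583 and 0.575. The bin from 75 to 80 Mb had the greatest median height but 60.0 and 62.6 peaks per Mb. Across the 23 bins the Spearman correlation of median height with the number of peaks was 0.204 and 0.210, with the number of genes it was −0.108 and −0.0972, and with the median width of the TSS peaks it was 0.688 and 0.615. These are descriptions over neighbouring bins of the same libraries. Bins with many peaks were thus not regularly those with tall TSS peaks, whereas bins with tall TSS peaks tended to have wide ones.

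Since a bin edge can only fall at a multiple of 5 Mb, the genes were also divided in their own order, without bins, into pieces that keep the log2 heights closest to the median of each piece. With 3 pieces both replicates gave the same breaks. The first lay between PDZRN4 (5′ TSS at 41188320) and GXYLT1 (42144874), and the second between SDSL (113422380) and SDS (113426301), on hg38. The first stretch held 201 genes with a peak in both replicates and had medians of 0.625 and 0.633. The middle stretch held 497 genes and had 1.23 and 1.22, and the last held 136 genes and had 0.607 and 0.608. With 2 pieces the single break was between TMTC1 and IPO8, at the 12p boundary of the bins, in both replicates. The change from low to high was therefore placed at one of these positions or the other, and the genes between them had both low and high peaks.

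**Figure D2:**
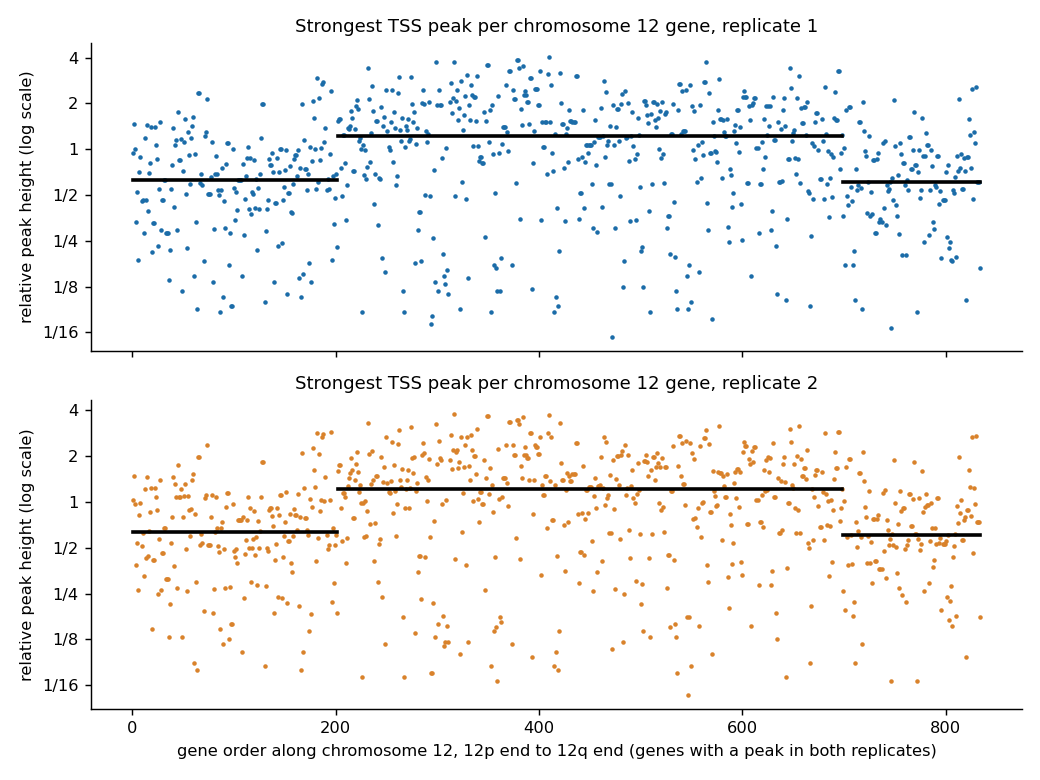
Relative height (log scale) of the strongest TSS peak of the 834 genes with a peak in both replicates, plotted by gene order from the 12p end to the 12q end, for replicate 1 (blue, upper) and replicate 2 (orange, lower). Each point is 1 gene and black lines are the medians of the first, middle and last stretch, at 0.625, 1.23 and 0.607 in replicate 1 and 0.633, 1.22 and 0.608 in replicate 2. The points of all 3 stretches overlap over most of their range.

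The stretches were divided on these heights, so that differing shares of tall and low genes between them were set by the division. Heights of at least 1.5 times the autosomal median in both replicates were found for 15 genes (7.46%) of the first stretch, 175 (35.2%) of the middle and 13 (9.56%) of the last, beside 26.8% of all autosomal genes with a TSS peak. Heights of at most 0.5 times the median were found for 66 (32.8%), 94 (18.9%) and 39 (28.7%), beside 21.6%. The 25th percentile was 0.382 and 0.416 in the first stretch, 0.612 and 0.629 in the middle and 0.403 and 0.398 in the last. The 90th percentile was 1.40 and 1.37, 2.45 and 2.41, and 1.31 and 1.28. Low promoters thus remained in the middle stretch, and its share of tall ones was above the autosomal share while both outer stretches were below it. Over the whole chromosome the shares were 24.3% tall and 23.9% low, close to those of the autosomes.

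The first break was placed by the heights of the genes on its sides, which are given as a description. PDZRN4, a RING and PDZ domain protein, had 51 and 45 stacked reads in replicates 1 and 2. CNTN1, a neural adhesion molecule, had 154 and 146, and MUC19, a gel-forming mucin, had 107 and 126. All 3 lay under the autosomal median. GXYLT1, which adds xylose to Notch receptors, had 344 and 381, and the shared promoter of YAF2, a Polycomb partner, and PPHLN1 had 355 and 417. For counting error alone the exact 95% Poisson interval was 38.0 to 67.1 for PDZRN4 and 309 to 382 for GXYLT1 in replicate 1.

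At the 12p boundary the neighbours were mixed. ERGIC2, which takes part in transport from the endoplasmic reticulum to the Golgi, had 232 and 252 stacked reads on the low side. FAR2, a fatty acyl-CoA reductase, had 40 and 34 and TMTC1, an O-mannosyltransferase, had 30 and 44. On the high side IPO8, a nuclear import receptor, had 187 and 221, below ERGIC2. CAPRIN2, an RNA-binding protein, had 467 and 545 and the DNA helicase DDX11, which has near-identical copies elsewhere, had 358 and 390. The heights of the single genes on the sides thus overlapped.

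At the second break PLBD2 had 166 and 180 stacked reads, SLC8B1, the mitochondrial sodium-calcium exchanger, had 213 and 218 and SDSL, a serine dehydratase relative, had 277 and 293. Across it SDS, the liver serine dehydratase, had 82 and 62. RBM19, needed to make ribosomes, had 229 and 243, higher than PLBD2, and TBX5, a heart and limb factor, had 39 and 47. Nearer to the boundary at 115 Mb, TBX3, a T-box factor of mammary development, had 404 and 409 on its high side, while MED13L of the Mediator complex had 111 and 141, and MAP1LC3B2, a copy of the autophagy gene LC3B, had 97 and 92 on its low side. The other gene on that side, SPRING1, which acts in sterol-dependent SREBP processing and shares its peak with RNFT2, had 425 and 461. On 12q too the sides differed in their medians while the heights of single genes overlapped.

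The tallest peaks all lay in the middle stretch. ATP5F1B, the beta subunit of mitochondrial ATP synthase, had 910 stacked reads in replicate 1 and 890 in replicate 2. SPRYD3 had 843 and 904. These exceeded the autosomal median more than 3.5 times in each replicate. The divergent promoter of PMEL, a melanosome protein, and RAB5B, an early endosome GTPase, had 867 and 832. The promoter shared by CBX5, which encodes the heterochromatin protein HP1 alpha, and HNRNPA1, a splicing factor, had 800 and 877. The lowest were FIGNL2 with 16 and 18, ANKRD33 with 18 and 18 at peaks that did not overlap, LUM with 20 and 13, P2RX7, an ATP-gated channel, with 15 and 16, and HCAR2, the niacin receptor, with 19 and 16. Of these 5, LUM, a proteoglycan of connective tissue, FIGNL2 and ANKRD33 lay in the middle stretch and the others in the last.

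In the first stretch the highest gene per bin before 30 Mb had at most 483 and 569 stacked reads. In the 0 to 5 Mb bin it was SLC6A12, a betaine transporter, with 330 and 354 stacked reads. PTPN6, the phosphatase SHP-1, led the 5 to 10 Mb bin with 483 and 569, WBP11, a splicing protein sharing its peak with C12orf60, led the next with 443 and 439, and AEBP2, a partner of Polycomb repressive complex 2, the one from 15 to 20 Mb with 197 and 220. ETNK1, an ethanolamine kinase, led the 20 to 25 Mb bin with 222 and 278 and PPFIBP1, a liprin, the 25 to 30 Mb bin with 442 and 505. From 30 to 40 Mb the leaders were taller, with ETFBKMT, a lysine methyltransferase of mitochondria, at 655 and 682 and KIF21A, a kinesin, at 544 and 690, although both are still in the first stretch.

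In the middle stretch KANSL2, of the NSL acetyltransferase complex, led the bin from 45 to 50 Mb with 768 and 795 stacked reads. SRGAP1, a GTPase-activating protein, led the bin from 60 to 65 Mb with 632 and 644. NAP1L1, a histone chaperone, led the one from 75 to 80 Mb with 442 and 501. All of these were above the leaders of the bins before 25 Mb other than PTPN6 and WBP11. Other leaders of the middle stretch were low, with YAF2 and PPHLN1 at 355 and 417, TMEM19 at 437 and 487 and TMTC2 at 443 and 560. PTPN6 of the first stretch was above TMEM19 and NAP1L1 in both replicates, and ETFBKMT was above SRGAP1. The leaders of the stretches thus overlapped, and the bins differ in their number of genes. The promoter shared by CEP290, a ciliary protein, and TMTC3 had 599 and 653 in the bin from 85 to 90 Mb. BTG1, an antiproliferative factor, had 589 and 587 in the next bin, and METAP2, a methionine aminopeptidase, 835 and 717 in the one after it. Further on MVK, mevalonate kinase, had 768 and 724 and ATP2A2, the calcium pump SERCA2, had 680 and 761. NAP1L1 led the bin with the highest median and was lower than SRGAP1 and CEP290, and in the bin from 90 to 95 Mb, with medians of 0.752 and 0.729, BTG1 was tall. The median of a bin and its tallest gene were therefore different measures. In the last stretch HSPB8, a small heat shock protein, led with 457 and 510, ANAPC5 of the anaphase-promoting complex with 470 and 455, SLC15A4 with only 120 and 104, and ZNF140, a zinc finger gene at the chromosome end, with 578 and 653.

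A finer division with 5 pieces placed a short stretch from SARNP to STAT2 in both replicates, from 55817724 to 56360203 on hg38 by 5′ TSS. It was singled out by its heights and is described only. Of its 33 genes, 32 had a TSS peak in each replicate and 31 in both, beside 79.3% of all protein-coding genes in both. The medians were 2.21 and 2.05. Of the 31 genes, each counted even where it shares its peak with another, 23 (74.2%) were at least 1.5 times the autosomal median. Over autosomal genes with a TSS peak this share was 26.8%, and the choice of the stretch by its heights favoured a larger one. The stretch held 215 and 213 peaks per Mb, beside 96.8 and 102 in the whole middle stretch. Its peaks more than 3 kb from any TSS numbered only 29.4 and 31.2 per Mb, beside 60.6 and 65.2. Before it RDH5 had 589 and 565 stacked reads and GDF11, a TGF-beta family ligand, had 217 and 226, and after it APOF had 77 and 79 and TIMELESS, a replication fork protein, 336 and 310. With 6 pieces the stretch was no longer set apart in either replicate, and with 7 pieces it was in replicate 1 only. The remaining breaks of the division into 5 pieces were not all shared, since the first was between PDZRN4 and GXYLT1 in replicate 1 and between TMTC1 and IPO8 in replicate 2.

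**Figure D3:**
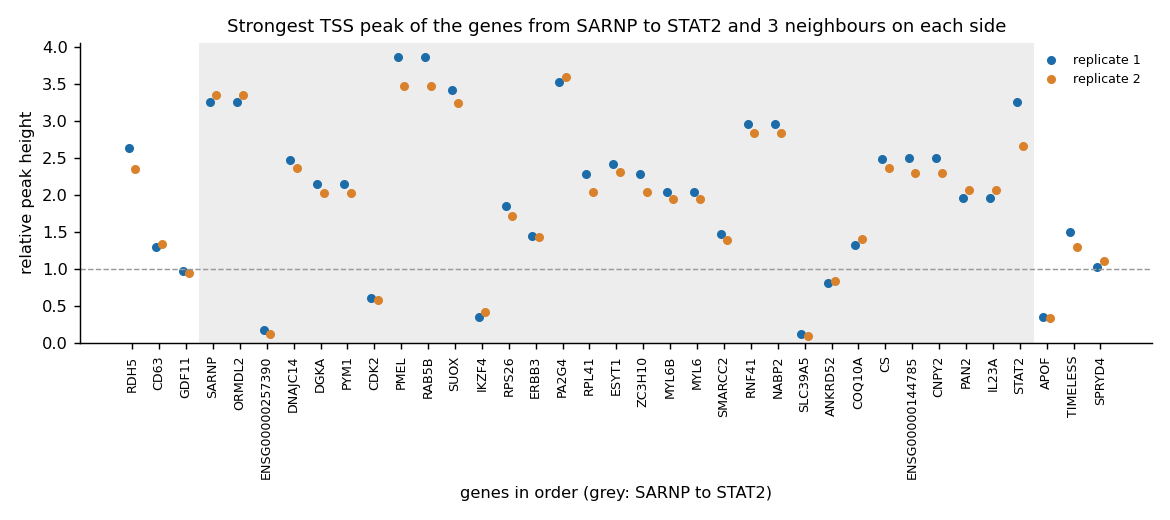
Relative height (no unit, 1 is the autosomal median) of the strongest TSS peak of each gene from SARNP to STAT2 (grey) and of 3 genes with a peak on each side, in gene order. Blue is replicate 1 and orange replicate 2. The tallest are PMEL and RAB5B, which share a peak, and PA2G4, while CDK2, IKZF4 and SLC39A5 lie below 1 in both replicates.

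Pairs of genes that share a promoter peak make up much of this stretch. SARNP, an mRNA export factor, and ORMDL2, a regulator of sphingolipid synthesis, shared a peak of 731 and 804 stacked reads. RPL41 and ZC3H10 shared one of 511 and 489. RNF41, a ubiquitin ligase that acts on ERBB3, and NABP2, a single-stranded DNA binding protein, shared a peak of 682 in replicate 2 and had separate ones of 662 and 664 in replicate 1. Among genes on their own, PA2G4, which encodes the ERBB3-binding protein EBP1, had 791 and 864, SUOX, sulfite oxidase, had 766 and 780, CS, citrate synthase, had 556 and 567, and STAT2, of interferon signalling, had 729 and 640. ERBB3 itself, a receptor of the EGF receptor family, had 325 and 344. Low promoters stood among them, with SLC39A5, a zinc transporter, at 27 and 23, IKZF4, a lymphoid factor, at 78 and 101 and CDK2 at 135 and 140. Counted over the chromosome, 189 of the 834 genes shared their strongest peak with another gene in at least 1 replicate, and the genes rested on 742 distinct peaks in replicate 1 and 749 in replicate 2. For 33 of the genes the strongest peaks of the replicates did not overlap, so that their values come from different peaks of the gene.

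With 6 pieces a stretch of low peaks appeared inside the middle stretch in both replicates and ended at KRT78. It began at SCN8A in replicate 1 and at FIGNL2 in replicate 2, held 19 genes in each and had medians of 0.259 and 0.179. It covers much of the type II keratin cluster. In replicate 2 a division into 4 pieces also set apart the genes from SFSWAP to ZNF268 at the 12q end, with a median of 0.825 over 24 genes against 0.575 over the 115 genes before them. Replicate 1 gave no such break.

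Luminal and basal keratins of the cluster stood far apart. All 4 luminal or simple epithelial keratins exceeded 1.5 times the autosomal median in both replicates, beside 26.8% of autosomal genes with a TSS peak. KRT18 had 456 and 450 stacked reads and KRT80 550 and 599, each at 1 peak found in both replicates. KRT8, the partner of KRT18, had 608 and 662 and KRT7 had 437 and 468, but for each of them the peaks of the replicates did not overlap and lay at different annotated TSSs. The peak of KRT18 also covered the 5′ TSS of KRT8 at 52949954. Of 7 basal and hair keratins, KRT6A, KRT6B, KRT6C, KRT75 and KRT81 had no TSS peak in either replicate and KRT5, the basal keratin, had 46 and 43 at peaks that did not overlap. The seventh, KRT86, had 437 and 450, and in replicate 1 its peak is the one given to KRT7. KRT6A, KRT6B and KRT6C, and likewise KRT81 and KRT86, are close copies of each other, and how reads that fit several copies were handled is not given in the sources used here.

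**Figure D4:**
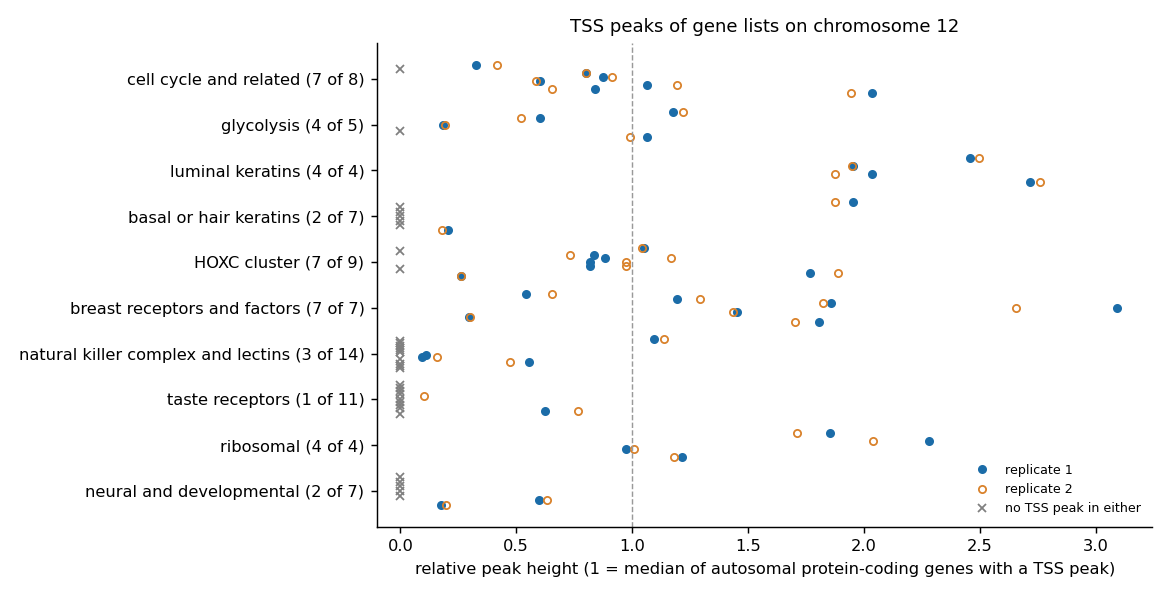
Relative height (no unit, 1 is the autosomal median) of the strongest TSS peak of every gene of 10 lists on chromosome 12, with the number of genes with a peak in both replicates and the number listed. Filled blue is replicate 1, open orange replicate 2 and a cross at 0 a gene with no TSS peak in either. The 4 luminal keratins all lie above 1.5, and 10 of 14 natural killer and lectin genes and 9 of 11 taste receptors have no peak in either replicate.

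Of 7 receptors and factors of breast cells on chromosome 12, all had a TSS peak, beside 79.3% of all protein-coding genes, and their median relative height was 1.44. SP1, which binds the GC box, had 692 and 637 stacked reads, RARG, a retinoic acid receptor, 416 and 437 and TBX3 404 and 409. VDR, the vitamin D receptor, had 267 and 310. PTHLH, the parathyroid hormone-like hormone, had 121 and 157 and NTN4, a netrin of basement membranes, had 66 and 72. NTN4 was a low gene in a bin with medians of 1.12 and 1.09, and PTHLH lay in the low first stretch.

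The HOXC cluster was mixed over a short distance. HOXC4, the gene of the cluster with the tallest peak, had 396 and 453 stacked reads and HOXC13, at the other end, 235 and 250. HOXC10 had 198 and 280 and HOXC11 187 and 176, while HOXC6 and HOXC9 shared a peak of 183 and 234. HOXC5 had 59 and 63, and HOXC8 and HOXC12 had no peak within 1 kb. Of the 9 genes 7 had a peak in both replicates, near the 79.3% of all genes, with a median of 0.896.

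Of 8 genes of the cell cycle and related control, 7 had a TSS peak, near the share over all genes, and their median relative height was 0.8. E2F7, a repressor of the E2F family, had the tallest with 456 and 466 stacked reads. CDK4, the cyclin D kinase, had 238 and 286 at a peak shared with MARCHF9, and MDM2, the ubiquitin ligase of p53, had 188 and 157. Those 3 and CDK2 lie in the middle stretch. In the first stretch the CDK inhibitor gene CDKN1B had 196 and 219, ETV6 179 and 192 and FOXM1, at a promoter shared with RHNO1, 73 and 100. CCND2, which encodes cyclin D2, had no TSS peak. Members in the middle stretch were therefore not all higher than those in the first, as CDK2 and MDM2 lay below CDKN1B.

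Glycolytic genes on the chromosome had peaks of very different height. GAPDH had 263 and 293 stacked reads, and a region of this gene served as an open control when the libraries were made. TPI1, triose phosphate isomerase, had 135 and 125 at peaks that did not overlap, ENO2, the neuronal enolase, had 41 and 46 and PFKM, muscle phosphofructokinase, had 238 in both replicates. LDHB, a lactate dehydrogenase subunit, had no TSS peak. GAPDH and TPI1, less than 1 Mb apart, thus differed more than the replicates did. The 4 ribosomal protein genes all had peaks, beside 79.3% of all genes, with RPL41 at 511 and 489, RPS26 at 415 and 411, RPLP0 at 272 and 283 and RPL6 at 218 and 242. RPLP0 had more than the median of the last stretch, where it lies, and RPL6 less than that of the middle.

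Families that are silent in most epithelia had few TSS peaks, beside 79.3% of all protein-coding genes with a peak in both replicates. Many of these genes lie in the first stretch, where 67.4 and 67.8% of genes had a TSS peak in replicates 1 and 2. Of 14 natural killer receptor and lectin genes 3 had a peak in both replicates, 10 had none in either, among them KLRD1, KLRC1, CD69 and CLEC12A, and CLEC7A had one of 25 stacked reads in replicate 1 only. KLRG1, at 245 and 273, shared the peak of M6PR, the mannose 6-phosphate receptor gene, KLRK1 had 124 and 114 and OLR1 21 and 38. Of 11 bitter taste receptors only TAS2R14 had a peak in both, at 140 and 184 and shared with PRH1 and SMIM10L1, and 9 had none. Of 7 neural or developmental genes SYT1 had 134 and 152 and TBX5 had 39 and 47, and NANOG, GRIN2B, KCNA1, KCNA5 and KCNA6 had no peak. A gene with no peak within 1 kb does not enter a median.

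Any TSS peak was held by 203 of the 301 genes of the first stretch in replicate 1, and the share in replicates 1 and 2 was 67.4 and 67.8% in the first stretch, 85.6 and 86.3% in the middle and 88.9 and 90.9% in the last. The low stretches were thus unlike in this measure, as the last had the largest share of genes with a peak and peaks as low as those of the first. All peaks numbered 52.2 and 57.1 per Mb in the first, 96.8 and 102 in the middle and 89.5 and 92.2 in the last. TSS peaks had a median width of 833 and 786 bp, 1131 and 1126 bp, and 837 and 811 bp.

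Peaks away from promoters were not used to choose genes or breaks. Peaks more than 3 kb from any TSS had a median height of 34 and 35 stacked reads in the first stretch, 34 in both replicates in the middle and 31 in both in the last, and the lowest peak of either list had 11. Their 95th percentile was 155 and 164 in the first, 214 and 215 in the middle and 158 and 159 in the last, and the share with at least 100 stacked reads was 12.7 and 14.0%, 16 and 16.6%, and 12.1 and 12.9%. The median of the called distal peaks was therefore nearly the same in all stretches, while their upper tail, like the TSS peaks, was highest in the middle stretch. Distal peaks numbered 33.2 and 36.4 per Mb in the first, 60.6 and 65.2 in the middle and 53.6 and 56.2 in the last. Regions below the caller's limit do not enter these medians. Over 23 bins the Spearman correlation of the median TSS height with the 95th percentile of distal peaks was 0.603 and 0.643 and with their median 0.0889 and 0.0454.

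Distal peaks with the core letters of the CTCF motif gave another readout. CTCF binds insulators and anchors of chromatin loops, many of which are occupied in most cell types. The core was searched as AGNNGGCGC on both strands and was found in 203 of 6784 distal peaks of chromosome 12 in replicate 1. In replicate 2 it was found in 202 of 7294. On the autosomes such peaks had a median height of 77 stacked reads in each replicate. In the first stretch the median was 45 in both replicates, over 42 and 45 peaks, in the middle it was 83 and 92.5 over 105 and 102 peaks, and in the last 53 and 51 over 56 and 55 peaks. The middle stretch exceeded the first 1.95 ± 0.149 times and the last 1.69 ± 0.175 times (SD, n = 2 replicates), beside 1.94 ± 0.0306 and 2.01 ± 0.0156 times for the TSS peaks. Both classes of peaks were lower in the outer stretches than in the middle one in both replicates. By bin, CTCF-core medians relative to the autosomal one did not always follow the TSS medians. The bin from 50 to 55 Mb had 1.49 and 1.77 over 21 and 20 peaks. That from 120 to 125 Mb had 0.474 and 0.610 over 26 and 23. The bin from 110 to 115 Mb, which holds the second break, had 0.416 and 0.494 over 12 and 13. The last bin, in the low last stretch, had 1.83 and 1.57 over 10 and 13. A match to these letters does not show that CTCF was bound, and the number of matches by chance was not estimated.

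**Figure D5:**
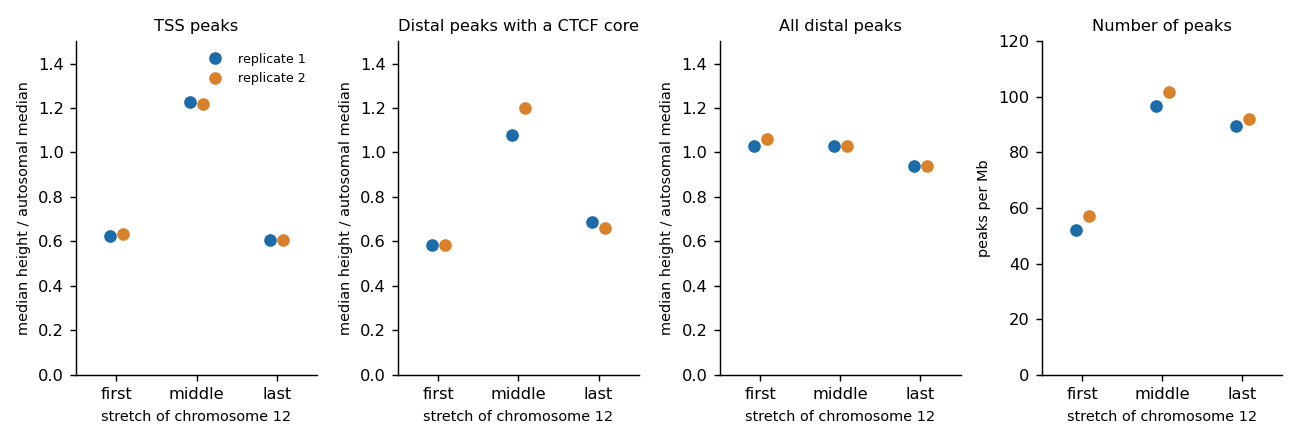
Values of the first, middle and last stretch of chromosome 12 in replicate 1 (blue) and replicate 2 (orange). The first 3 panels give medians of peak height divided by the autosomal median of the same class of peaks, for TSS peaks, distal peaks with the CTCF core and all distal peaks, and the fourth all peaks per Mb. TSS and CTCF-core peaks are highest in the middle stretch, the median of all distal peaks stays between 0.939 and 1.06, and the number of peaks is lowest in the first stretch.

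The promoters of the stretches differed in base composition, which was read on hg38 from 250 bases before to 50 bases after the annotated TSS nearest to the strongest peak. The median CpG ratio, the CpG count over that expected from the C and G counts, was 0.750 in the first stretch, 0.751 in the middle and 0.862 in the last. Promoters with a ratio of at least 0.6 made up 61.7%, 67.6% and 77.9% of them. Among those CpG-rich promoters the median relative height was 0.725 and 0.767 in the first, 1.37 and 1.38 in the middle and 0.636 and 0.679 in the last. Among CpG-poor promoters it was 0.478 and 0.50, 0.692 and 0.704, and 0.569 and 0.563. The last stretch thus had the promoters richest in CpG and low peaks. The middle stretch was on top in both classes, but it was set apart by the heights of these same genes.

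For genes without a peak the window was set at the 5′ end of the gene record. Motif shares with and without a peak thus come from windows placed in different ways. GC boxes were found in 59.0% of the 834 promoters with a peak, in 21.0% of the 186 without and in 54.9% of all 20033 protein-coding promoters. By stretch the share was 52.7%, 57.7% and 72.8%, highest in the last. CCAAT boxes were in 31.3%, 34.6% and 38.2%, beside 35.1% of all promoters, and ETS letters in 13.9%, 15.1% and 22.8%, beside 12.9%. The E-box CACGTG, bound by MYC and USF, was highest in the middle, at 4.48%, 13.3% and 10.3%, beside 8.16% of all promoters. TATAAA on either strand was in 7.07% of promoters with a peak, in 32.8% of those without and in 9.33% of all. Within each stretch promoters with a GC box had higher medians than those without, at 0.713 and 0.532 in the first, 1.36 and 1.01 in the middle and 0.672 and 0.538 in the last, as means over the replicates. For CCAAT boxes the medians were 0.853 and 0.589, 1.5 and 1.14, and 0.809 and 0.554. The middle stretch was above both others among promoters with and without either of these motifs, which its choice on these same heights favoured. Among promoters with TATAAA the middle stretch was lowest, with medians of 0.572 over 21 promoters, 0.407 over 32 and 0.435 over 6.

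Most of the genes, 754, had a peak over an annotated TSS itself in both replicates. Just inside the limit were PRMT8, with its nearest peak 995 and 978 bp away and 52 and 60 stacked reads high, ART4 at 962 and 995 bp with 22 and 20, and NOS1 at 41 and 993 bp with 23 and 21. Just outside were CMKLR1 at 1028 and 1080 bp with 16 and 20, the read-through gene KLRC4-KLRK1 at 1089 and 1086 bp with 70 and 89, and HOXC8 at 1098 and 1086 bp with 19 and 22. The peaks on either side of the limit were low.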

How the data were processed

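The 2 replicates of CAMA-1 cells were labelled as biological replicates of 1 condition. Per the labels and the study's methods, the authors trimmed reads with Trim Galore 0.6.5, aligned them with Bowtie2 2.3.5.1 and called peaks on hg38 in each replicate with MACS2 2.2.6. Settings of the caller and the handling of duplicate and multiply aligned reads are not given in the sources used here. Each peak came with 4 deposited values, namely a score, its fold enrichment over the caller's background, the −log10 p-value and the −log10 q-value. The deposited score was the −log10 q times 10. The lists hold no read totals. The study's supplement gives the total sequences of both libraries, with the larger total for replicate 2. How many reads entered the peak calling is not given in the sources used here. Fold enrichment was read as (height + 1) / (background + 1), and its steps of 0.230 and 0.221 gave whole stacked reads. Intervals cover counting error only.

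TSSs came from GENCODE release 44. Arms were divided at the widest TSS-free interval, from 34022468 to 38316762. A step was the bin boundary, with at least 10 genes on each side, that most lowered the summed absolute deviations of log2 height. Named genes were the highest gene per bin, the 3 genes on either side of each step, the 5 highest and lowest genes and fixed lists, some genes of which are not reported here. The genes beside the gene-order breaks and from SARNP to STAT2 were added after their values were seen. Members and lists were chosen with earlier results of these data known. The search for steps was tested on simulated data. Alternatives were other TSS distances and bins, 1 TSS per gene, other measures of height, a minimum −log10 q of 10 and omission of each replicate. The work was done in Python 3.11.15 with matplotlib 3.10.9, scipy 1.17.1 and numpy 2.4.6.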

Additional observations from a re-analysis of the deposited data

How the results depend on the processing

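Of 46 recomputed values, 17 moved by no more than the spread between replicates, and the omission of either replicate left all 4 results within it (12p ratio 1.78 to 1.80, 12q ratio 1.95 to 1.99). The 12p ratio of 1.79 reversed to 0.931 with all peaks more than 3 kb from any TSS, and the 12q ratio of 1.97 was then 1.08 and the chromosome median 1.02. For the 12p ratio, other values were 1.76 at a −log10 q of at least 10, 2.03 and 1.61 with TSSs within 100 bp and 3 kb, 1.90 with the most 5′ TSS only, 2.17 with −log10 q in place of height, 3.03 with genes without a peak at height 0, 1.85 with each peak once, 1.51 with CpG-rich promoters and 1.57 with bins starting at 2.5 Mb, which put the boundary at 27.5 Mb. In the same order, the 12q ratio was 2.01, 2.01, 1.70, unchanged within the spread, 2.45, 1.80, unchanged within the spread, 2.16 and 1.86, the last with the boundary at 112.5 Mb. Without the genes from SARNP to STAT2, an alternative chosen after seeing the data, it was 1.89. With 10 Mb bins the 12q boundary lay at 120 Mb. The chromosome median of 0.905 became 0.887 within 100 bp, 0.916 with the most 5′ TSS, 0.878 with −log10 q, 0.877 with genes without a peak at 0 and 0.923 with each peak once. Of the genes, 80.3% had a TSS peak, which became 74.6% within 100 bp, 86.8% within 3 kb, 77.6% at a −log10 q of at least 10 and 72.3% with the most 5′ TSS. The cause was not tested. No paired analysis was possible because there was only 1 condition.

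With 2 replicates an SD has little precision, and the lists hold only called peaks, so that regions below the caller's limit enter as missing.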
